A study of Mus musculus with 24 samples.

Results

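Hba-a1, Hba-a2, Hbb-bs, Hbb-bt and Alas2 are genes of the red cell lineage whose tags were counted in mouse brain. They were taken from the raw count table by gene symbol, 5 of 55421 genes, and 4 of the 5 had enough counts for a test across libraries. Alas2 did not pass the filter on low counts and is described from its counts. The genes were chosen from the LPS against PBS values, with the knowledge that their counts lie lower after lipopolysaccharide (LPS, the bacterial endotoxin), so the LPS differences below are a description and carry no test. The comparisons between genotypes, and of the LPS difference between genotypes, were not used in that choice and were tested.

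The study compared 4 groups of 6 mice. Nox2 knockout (KO) mice given LPS, Nox2 KO mice given phosphate-buffered saline (PBS), wild type (WT) mice given LPS and WT mice given PBS were all 3 months old, and all carry the strain label C57BL/6J. Each animal had an intraperitoneal injection of 100 µl on each of 4 days, and LPS from Salmonella abortus equi was dosed at 1 µg per g body weight per day. RNA came from the homogenised left brain hemisphere, and each library is 1 animal. The protocols used here mention no perfusion of the vessels, so blood in the hemisphere may have entered the RNA. The knockout allele, the sex of the animals and whether the mice were littermates are not given in the labels used here.

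Haemoglobin is a tetramer of alpha chains and beta chains, each of which holds a haem group. In adult mice the alpha chains come from Hba-a1 and Hba-a2 and the beta chains from the neighbouring genes Hbb-bs and Hbb-bt, written here as in the gene annotation. Alas2 encodes the erythroid form of 5-aminolevulinate synthase, the first enzyme of haem synthesis in developing red cells. Mature red cells have no nucleus, and their remaining globin RNA is highest in reticulocytes, the youngest cells in the blood. In a bulk hemisphere, fewer cells of a type and less RNA per cell cannot be told apart.

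The alpha genes lie on chromosome 11 of GRCm38 (GENCODE M21). Hba-a1 (ENSMUSG00000069919) spans 32283511 to 32284465 and Hba-a2 (ENSMUSG00000069917) spans 32296489 to 32297298, both on the plus strand and separated by 12023 bases. The beta genes lie on the minus strand of chromosome 7, Hbb-bs (ENSMUSG00000052305) from 103826534 to 103828096 and Hbb-bt (ENSMUSG00000073940) from 103812524 to 103813996, separated by 12537 bases. Alas2 (ENSMUSG00000025270) spans 150547375 to 150570638 on the plus strand of chromosome X and overlaps Apex2 and Mir3620 on the minus strand. The strand setting of the counting is not given in the sources used here, so reads of Alas2 and of its antisense neighbours cannot be told apart.

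The 5 genes share promoter letters in part. The windows are shown as a description of the genes. Any part of these letters in the globin or Alas2 counts, or in how they varied across libraries, was not tested. Each line gives the 200 bases before the RefSeq start of the gene on GRCm38.p6, 5′ to 3′ on the gene's own strand, for Hba-a1 (chr11:32283472-32283671, plus strand), Hbb-bs (chr7:103827929-103828128, minus strand), Hbb-bt (chr7:103813924-103814123, minus strand) and Alas2 (chrX:150547217-150547416, plus strand). Capitals mark every match to 4 short motifs on either strand: GATAA or TTATC (the core bound by GATA factors), CACCC or GGGTG (the core of sites bound by Klf1 and related factors), CCAAT or ATTGG, and TATAA or TTATA.
Hba-a1: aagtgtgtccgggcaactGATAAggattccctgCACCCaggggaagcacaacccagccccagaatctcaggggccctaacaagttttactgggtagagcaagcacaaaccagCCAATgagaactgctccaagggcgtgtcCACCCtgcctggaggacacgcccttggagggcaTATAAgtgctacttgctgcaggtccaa
Hbb-bs: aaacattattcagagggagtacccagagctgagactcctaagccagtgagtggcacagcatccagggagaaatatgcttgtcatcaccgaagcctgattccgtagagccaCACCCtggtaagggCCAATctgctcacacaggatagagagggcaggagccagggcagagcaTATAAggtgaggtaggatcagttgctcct
Hbb-bt: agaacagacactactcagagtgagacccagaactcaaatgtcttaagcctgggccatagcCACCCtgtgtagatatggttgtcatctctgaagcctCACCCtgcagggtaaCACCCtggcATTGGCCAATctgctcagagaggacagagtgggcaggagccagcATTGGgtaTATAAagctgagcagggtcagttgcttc
Alas2: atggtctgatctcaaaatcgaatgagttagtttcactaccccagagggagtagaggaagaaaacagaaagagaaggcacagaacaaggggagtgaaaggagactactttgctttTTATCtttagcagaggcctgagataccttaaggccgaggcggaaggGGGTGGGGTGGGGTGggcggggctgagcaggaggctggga

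The Hba-a2 promoter is not printed because its RefSeq entry is the Hba-a1 entry shifted by 3 bases, with 297 of 297 overlapping bases alike. Hba-a1 and Hba-a2 each hold all 4 motifs, a set found in 0.481% of the 32851 promoter windows of the same length. In Hba-a1 the GATAA begins 182 bases before the start, the CCAAT 88 bases before it and the TATAA 27 bases before it. Hbb-bs and Hbb-bt hold matches to the other 3 motifs and none to the one bound by GATA factors in this window, and 151 of the 189 aligned bases of their windows are the same (79.9%). Hbb-bt has 3 CACCC matches and 3 matches to CCAAT or ATTGG, 1 of them directly beside another, whereas Hbb-bs has 1 of each. Alas2 has a TTATC that begins 86 bases before the start and 3 adjoining GGGTG matches at 40, 35 and 30 bases, with no match to the other 2 motifs. Taken singly, the GATA letters occur in 18.1% of all windows, CACCC in 45.5%, CCAAT in 29.3% and TATAA in 18.5%. A match is a description of letters and not evidence of binding.

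The libraries held 2.34e+06 to 5.26e+06 counts, so 1 count was worth 0.190 to 0.427 CPM (counts per 1e+06 counts of a library). Because the kit tags the 3′ end of each transcript, CPM is not divided by gene length. Neuron markers were abundant, with 8 of 8 tested and a summed level of 6039 to 6382 CPM in KO LPS, 6671 to 6927 CPM in KO PBS, 5879 to 6255 CPM in WT LPS and 6565 to 6963 CPM in WT PBS. Cybb, which encodes Nox2, stood at 66.7 to 77.8 CPM in KO LPS, 62.2 to 75.2 CPM in KO PBS, 15.6 to 33.8 CPM in WT LPS and 0.850 to 2.47 CPM in WT PBS. The libraries labelled KO were thus higher, and 3′ tags do not check a gene disrupted elsewhere, so the genotypes rest on the labels. Replicates 1 and 2 of WT LPS had the highest shares of mitochondrial ribosomal RNA, 5.07% and 5.39%, against 3.39 to 4.71% in the other 22 libraries.

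Globin counts were low in brain and spread widely between animals. The 4 globin genes together had 2.46, 9.19 and 55.1 CPM (lowest, median and highest of 6 libraries) in KO LPS, 35.9, 61.7 and 356.8 CPM in KO PBS, 0.974, 2.81 and 18.3 CPM in WT LPS, and 27.9, 63.8 and 79.9 CPM in WT PBS. These levels rest on 320, 3257, 129 and 1421 counts over KO LPS, KO PBS, WT LPS and WT PBS. In both genotypes the LPS median lay far under the PBS median, and the medians of the PBS groups were close. Replicates 4 and 5 of KO PBS, at 356.8 and 252.7 CPM, stood far above the other 22 libraries, whose highest value was 79.9 CPM. The other 4 libraries of KO PBS ranged from 35.9 to 76.3 CPM, inside the range of WT PBS.

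Hbb-bs, which encodes the more counted beta chain, had 1.34, 5.92 and 28.2 CPM (lowest, median and highest) in KO LPS and 19.1, 33.0 and 220.2 CPM in KO PBS. It had 0.974, 1.72 and 8.93 CPM in WT LPS and 16.8, 37.8 and 49.0 CPM in WT PBS. Every WT LPS library lay under every WT PBS library, while in KO the LPS library of replicate 6 lay above 3 PBS libraries. By medians the groups ran in the order WT LPS, KO LPS, KO PBS and WT PBS, and by means KO PBS (80.7 ± 85.7 CPM, SD, n = 6) stood above WT PBS (34.5 ± 14.4 CPM). The PBS groups overlapped, as did the LPS groups, so neither pair of neighbours is separated by this order.

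Hbb-bt, the second adult beta gene, had 0.670, 1.55 and 16.4 CPM in KO LPS and 9.65, 17.3 and 68.0 CPM in KO PBS. It had 0, 0.636 and 7.52 CPM in WT LPS and 9.12, 12.9 and 17.7 CPM in WT PBS. WT LPS and WT PBS did not overlap, and KO LPS overlapped KO PBS only through replicate 6. Here the median was higher in KO PBS than in WT PBS, the opposite of Hbb-bs.

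Hba-a1, an alpha gene, had 0, 0.494 and 6.58 CPM in KO LPS and 2.96, 5.47 and 41.0 CPM in KO PBS. It had 0, 0.134 and 0.774 CPM in WT LPS and 0.493, 6.08 and 7.94 CPM in WT PBS. It had no counts in 2 of 6 KO LPS libraries and 3 of 6 WT LPS libraries. WT LPS and WT PBS overlapped through replicate 1 of WT PBS, which held 2 Hba-a1 counts and the lowest globin sum of its group.

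Hba-a2, the other alpha gene, had 0, 0.380 and 3.84 CPM in KO LPS and 2.69, 6.75 and 27.5 CPM in KO PBS. It had 0, 0.371 and 1.17 CPM in WT LPS and 1.48, 5.50 and 6.88 CPM in WT PBS. The WT groups did not overlap, and the KO groups overlapped through replicate 6 of KO LPS. The medians of the LPS groups differed by less than the worth of 1 count.

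**Figure D1:**
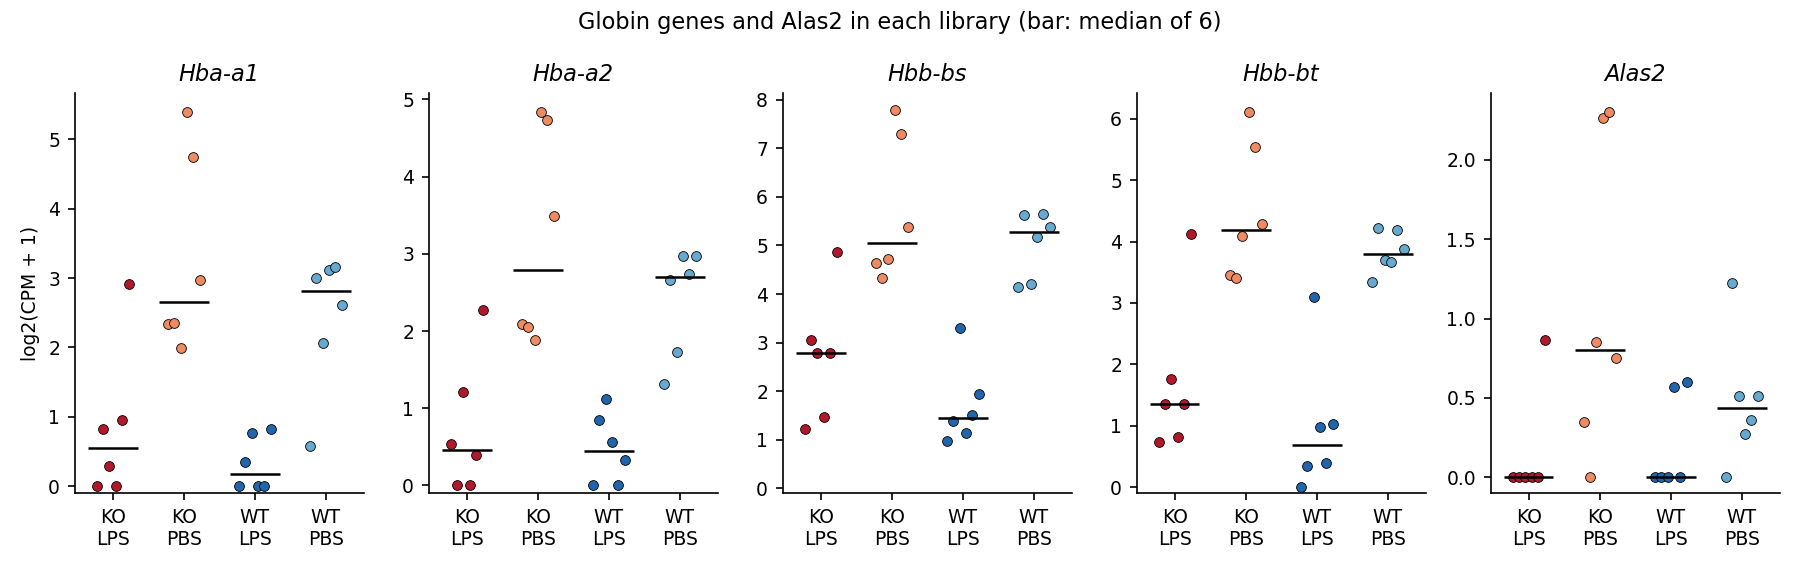
Level of each gene in every library, as log2(CPM + 1) on the vertical axis, with the 6 libraries of KO LPS, KO PBS, WT LPS and WT PBS as points and a bar at the median. The LPS groups lie low in both genotypes, and KO PBS replicates 4 and 5 stand above the rest, with 220.2 and 155.2 CPM for Hbb-bs.

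Alas2 was near the limit of counting. It had 0, 0 and 0.822 CPM in KO LPS, 0, 0.746 and 3.93 CPM in KO PBS, 0, 0 and 0.516 CPM in WT LPS, and 0, 0.353 and 1.33 CPM in WT PBS. These are 3, 38, 4 and 12 counts over the groups KO LPS, KO PBS, WT LPS and WT PBS. All 3 KO LPS counts came from replicate 6, the library with the most globin counts of its group, and 32 of the 38 KO PBS counts came from replicates 4 and 5. The ratio of Alas2 counts per depth in KO LPS over KO PBS was 0.0802 (exact 95% interval 0.0158 to 0.253), and in WT LPS over WT PBS it was 0.368 (0.0866 to 1.22). In KO PBS over WT PBS the ratio was 3.44 (1.76 to 7.22), and in KO LPS over WT LPS it was 0.748 (0.110 to 4.42). These intervals cover counting error only, not the spread between animals. In fits with no filter on low counts the KO over WT log2 difference after PBS was 1.69 ± 0.53 (SE), with an edgeR adjusted p of 0.229, and DESeq2 gave an adjusted p of 0.818.

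After LPS the 4 tested globin genes were lower than after PBS in each genotype. In KO the log2 fold changes of the fit over all libraries were -3.41 ± 0.61 (SE) for Hba-a1, -3.55 ± 0.57 for Hba-a2, -3.34 ± 0.50 for Hbb-bs and -2.89 ± 0.48 for Hbb-bt. In WT they were -3.95 ± 0.98 for Hba-a1, -3.16 ± 0.78 for Hba-a2, -3.46 ± 0.69 for Hbb-bs and -2.85 ± 0.61 for Hbb-bt. The median of the 4 genes was -3.38 in KO and -3.31 in WT, where the median of all 14380 tested genes was -0.0015 and -0.0088. These genes were chosen for this difference, so it is given without a test.

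Counted by library, no globin gene was wholly lower in KO LPS than in KO PBS, where 1.62% of tested genes were. In WT, 3 of the 4 tested globin genes, Hba-a2, Hbb-bs and Hbb-bt, were wholly lower in the LPS libraries, where 1.83% of tested genes were. The KO value depends on single libraries. Without replicates 4 and 5 of KO PBS the KO median was -1.76, and without replicate 6 of KO LPS it was -4.47. Without replicate 3 of WT LPS the WT median was -4.35. The values stayed under 0 for all tested globin genes in each alternative fit.

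Between genotypes after PBS, the fitted means of the globin genes were higher in KO than in WT, but none passed the test. The log2 differences, KO over WT, were 1.46 ± 0.47 (SE) for Hba-a1 with an edgeR adjusted p of 0.304, 1.40 ± 0.42 for Hba-a2 with 0.288, 1.27 ± 0.39 for Hbb-bs with 0.294 and 1.07 ± 0.37 for Hbb-bt with 0.370. Of the 4 tested genes 0 were called, where 0.132% of all tested genes were. In edgeR 4 of the 4 had an unadjusted p under 0.05, and in DESeq2 0 of the 4 did. Without replicates 4 and 5 of KO PBS together the differences were -0.27 ± 0.47 for Hba-a1, -0.02 ± 0.42 for Hba-a2, -0.36 ± 0.32 for Hbb-bs and -0.03 ± 0.38 for Hbb-bt. The differences were thus near 0 or negative once both libraries were left out. No globin gene was wholly higher in KO PBS than in WT PBS, where 0.257% of tested genes were.

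Between genotypes after LPS, the fitted differences were again positive, and none passed the test. KO over WT, they were 1.99 ± 1.33 (SE) for Hba-a1 with an edgeR adjusted p of 0.606, 1.01 ± 1.08 for Hba-a2 with 0.787, 1.39 ± 0.92 for Hbb-bs with 0.604 and 1.03 ± 0.80 for Hbb-bt with 0.677. Over their 6 libraries each, KO LPS held 30 and WT LPS 7 counts of Hba-a1, 23 and 11 of Hba-a2, and 86 and 42 of Hbb-bt, so the genes passed the filter on low counts mainly through the PBS groups. In a fit of the LPS groups alone Hbb-bs was the 1 globin gene with enough counts to be tested, at 1.42 ± 0.54 with an edgeR adjusted p of 0.285. Of the 4 genes 0 were called, where 1.05% of all tested genes were, and 0 had an unadjusted p under 0.05 in edgeR, against 1 in DESeq2. Without replicate 6 of KO LPS they were 0.03 for Hba-a1, -0.04 for Hba-a2, 0.43 for Hbb-bs and -0.42 for Hbb-bt. Without replicate 3 of WT LPS they were 2.22 for Hbb-bs and 2.72 for Hbb-bt. No globin gene was wholly higher in KO LPS than in WT LPS, where 0.313% of tested genes were.

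The LPS difference did not pass a test between genotypes. The LPS change in KO minus that in WT was 0.53 ± 1.33 (SE) for Hba-a1 with an edgeR adjusted p of 0.939, -0.39 ± 1.40 for Hba-a2 with 0.961, 0.12 ± 0.98 for Hbb-bs with 0.986 and -0.04 ± 1.23 for Hbb-bt with 0.997. Of the 4 genes 0 were called and 0 had an unadjusted p under 0.05 in edgeR or in DESeq2, where 0.00695% of all tested genes were called. Without replicates 4 and 5 of KO PBS all 4 differences were positive and none was called, at 2.26 ± 1.04 for Hba-a1 with an edgeR adjusted p of 0.583, 1.03 ± 0.88 for Hba-a2 with 0.803, 1.75 ± 0.63 for Hbb-bs with 0.447 and 1.06 ± 0.73 for Hbb-bt with 0.732. These SEs were computed back from the fold change and its F statistic and are unstable where the fold change is near 0. They set no limit of detection, and the absence of a call does not show that the LPS changes were equal.

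**Figure D2:**
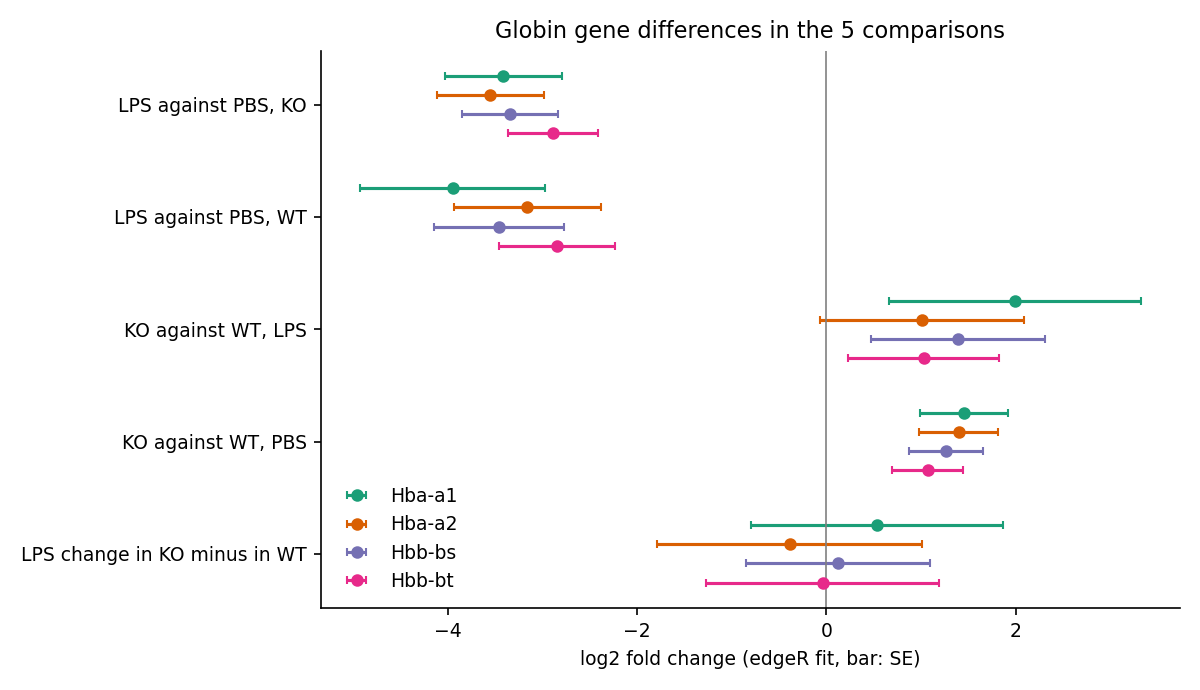
Log2 fold change (points) and SE (bars) of Hba-a1, Hba-a2, Hbb-bs and Hbb-bt from the edgeR fit over 24 libraries, in the 5 comparisons. Both LPS comparisons lie between -3.95 and -2.85, the genotype comparisons between 1.01 and 1.99, and the differences of the LPS change around 0.

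Counts can be divided between the beta genes with more confidence than between the alpha genes. Over the last 300 bases of their reference transcripts, Hba-a1 and Hba-a2 share 283 of 284 aligned bases (99.6%), so how the counting split their reads decides their separate values. Hbb-bs and Hbb-bt share 70 of 96 aligned bases (72.9%) in the last 100 bases and 262 of 296 (88.5%) in the last 300. Hba-a1 took 56.6% of alpha counts in KO LPS, 54.7% in KO PBS, 38.9% in WT LPS and 53.5% in WT PBS, near an even split in all but the group with 18 alpha counts. How reads with several matches were treated is not given in the sources used here.

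Hbb-bt took 32.2% of beta counts in KO LPS (exact Clopper-Pearson 95% interval 26.6 to 38.2), 25.5% in KO PBS (23.9 to 27.2), 37.8% in WT LPS (28.8 to 47.5) and 28.6% in WT PBS (26.0 to 31.2). The pooled share was higher in the LPS group of each genotype, but single libraries carried it. Replicate 6 of KO LPS had a share of 36.8% (29.4 to 44.7) and replicate 3 of WT LPS had 45.7% (33.7 to 58.1), and these libraries hold most beta counts of their groups. Averaged over libraries, the share was 27.9 ± 7.41% (SD, n = 6) in KO LPS, 30.0 ± 6.12% in KO PBS, 24.2 ± 18.2% in WT LPS and 29.8 ± 6.56% in WT PBS, differences smaller than the spread between libraries. The libraries richest in beta counts, replicates 4 and 5 of KO PBS, had shares of 23.6% (21.3 to 26.0) and 22.8% (19.9 to 26.0). PBS libraries with fewer counts reached 39.0% (31.2 to 47.1) in KO and 40.7% (32.5 to 49.3) in WT.

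**Figure D3:**
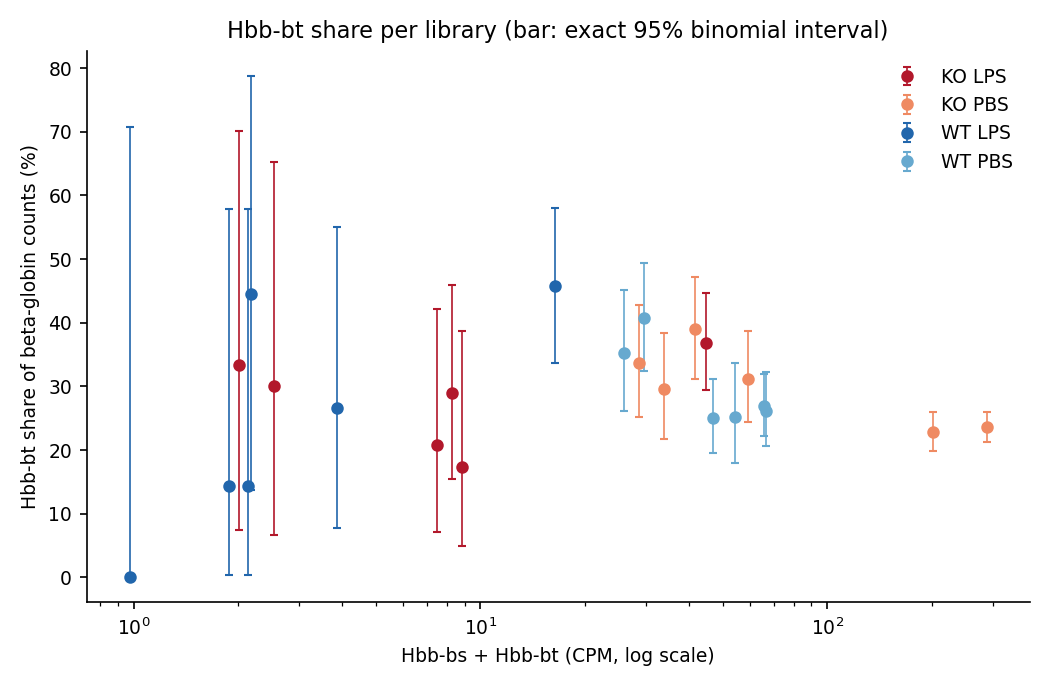
Hbb-bt share of beta-globin counts (vertical axis, percent) against the summed Hbb-bs and Hbb-bt level (horizontal axis, CPM, log scale) in each of 24 libraries, with exact 95% binomial intervals. The 2 libraries above 200 CPM lie at 23.6 and 22.8%, and the intervals of libraries under 10 CPM are wide.

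Alpha genes took 16.6% of globin counts in KO LPS (12.7 to 21.1), 19.4% in KO PBS (18.0 to 20.8), 14.0% in WT LPS (8.48 to 21.2) and 17.2% in WT PBS (15.3 to 19.3). The intervals of the LPS groups include the shares of the PBS groups. Replicate 1 of WT PBS had the lowest alpha share of the PBS libraries, 7.08% of 113 globin counts.

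Within a group, libraries rich in one globin were rich in the others. Pearson's r of Hbb-bs with Hba-a1, on log2(CPM + 1) over the 6 libraries of a group, was 0.938 in KO LPS, 0.986 in KO PBS, 0.787 in WT LPS and 0.853 in WT PBS. With two-sided exact permutation over 720 pairings and adjustment over 8 relations, p was 0.00833 (adjusted 0.0222) in KO LPS and in KO PBS, 0.0333 (adjusted 0.0533) in WT LPS and 0.0194 (adjusted 0.0389) in WT PBS. Spearman's rho was 0.928, 0.771, 0.759 and 0.829 in KO LPS, KO PBS, WT LPS and WT PBS, and no rho passed after adjustment, the lowest adjusted permutation p being 0.133. Leaving out the 2 libraries farthest from the median of Hbb-bs gave an r of 0.794, 0.736, 0.378 and 0.155 in the same order, so the relation in WT rests on those libraries.

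Alas2 followed Hbb-bs in KO PBS, where r was 0.970 (exact permutation p = 0.00833, adjusted 0.0222) and rho was 0.886 (p = 0.0333, adjusted 0.133). Without the 2 libraries farthest from the median, replicates 4 and 5, r was 0.723. In KO LPS r was 0.814 (exact permutation p = 0.167, adjusted 0.222) with Alas2 counts in a single library, in WT LPS it was -0.14 (p = 0.867, adjusted 0.867), and in WT PBS it was 0.535 (p = 0.312, adjusted 0.357). Alas2 has too few counts outside KO PBS for these values to say more.

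The libraries that stood apart in globin counts were compared in the marker lists of other cells. Replicate 6 of KO LPS had the highest summed level of 11 neutrophil markers in its group, 407.7 CPM against 95.2 to 228.9 CPM in the other 5. Replicate 3 of WT LPS did not, with 293.1 CPM where replicate 6 of that group had 726.1 CPM. Replicates 4 and 5 of KO PBS had 12.8 and 23.9 CPM of neutrophil markers, within the 10.5 to 44.7 CPM of the group. Of platelet markers, replicate 6 of KO LPS had the highest summed level of its group, 18.6 CPM against 13.2 to 16.6 CPM, and replicate 3 of WT LPS the lowest of its group, 9.39 CPM against 12.01 to 20.63 CPM. Replicates 4 and 5 of KO PBS had 11.2 and 12.1 CPM of platelet markers, within the 8.92 to 13.7 CPM of the others. Of endothelial markers they had 232.1 and 236.7 CPM against 182.0 to 232.2 CPM in the other 4, so replicate 5 was the highest of its group. The part of neutrophil, platelet and endothelial content in the globin values was not tested.

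Genes expressed in the same cells as the globins were mostly too low to test. Of 26 red cell membrane and reticulocyte genes, 25 were in the table and 8 were tested. Of the rest, 14 genes with few counts, among them Slc4a1 (the band 3 anion exchanger), summed to 1 to 10 counts a library in KO LPS, 5 to 14 in KO PBS, 1 to 8 in WT LPS and 2 to 15 in WT PBS, with at most 6 counts for a gene. The embryonic globins Hbb-bh0, Hbb-bh1 and Hbb-bh2 had no count in any library, and Hba-x, Hbq1a, Hbq1b and Hbb-y had at most 3 in any. Of the erythroid transcription factors, Gata1 had 1 count and Klf1 had 19 counts over all 24 libraries. Outside the 14 red cell genes summed above, Icam4, Gypc and Isg20 also went untested. Icam4 had 47 counts in KO LPS, 36 in KO PBS, 40 in WT LPS and 50 in WT PBS. In the same order Gypc had 19, 12, 23 and 30, and Isg20 had 9, 5, 11 and 13. Their counts were thus higher after LPS in KO and lower in WT. At this depth most of these genes give no level that can be compared between groups, and none was tested.

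Few of the tested genes of the red cell list, which the brain also expresses, rose after LPS. In KO, LPS raised 1 of the 8, Tent5c (a poly(A) polymerase, log2 fold change 0.74 ± 0.23, edgeR adjusted p = 0.0237), where 10.9% of all tested genes were called, 7.05% higher and 3.82% lower. In WT, 1 of 8 rose, Tent5c (0.66 ± 0.23, edgeR adjusted p = 0.036), where 18.1% of all tested genes were called, 10.9% higher and 7.12% lower. The Tent5c call was lost in both genotypes with DESeq2. Sptb (beta spectrin) stood at -0.12 ± 0.05 in KO and 0.01 ± 0.05 in WT, and Mkrn1 (a ubiquitin ligase) at -0.14 ± 0.07 in KO and -0.10 ± 0.07 in WT. The list's median was -0.13 in KO and -0.10 in WT.

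Haem synthesis genes stayed near their PBS levels apart from Alas1, the housekeeping counterpart of Alas2. LPS raised Alas1 by 0.55 ± 0.10 on the log2 scale in KO (edgeR adjusted p = 3.25e-05) and by 0.54 ± 0.10 in WT (adjusted p = 2.45e-05). It was the 1 of 12 tested members called in each genotype, and 0 fell in either, where 7.05% of all tested genes were higher and 3.82% lower in KO, and 10.9% higher and 7.12% lower in WT. A count of 1 of 12 is near those shares and is not a result about the list. Cpox (coproporphyrinogen oxidase) stood at 0.01 ± 0.06 in KO and -0.09 ± 0.06 in WT, Slc25a39 (a mitochondrial carrier) at -0.01 ± 0.08 in KO and 0.07 ± 0.08 in WT, and Tmem14c (a mitochondrial porphyrin transporter) at -0.10 ± 0.09 in KO and 0.23 ± 0.09 in WT. The list's median was 0.02 in KO and 0.08 in WT. Alas1 was thus higher after LPS, while Alas2 had fewer counts, 3 against 38 in KO and 4 against 12 in WT. Most of the 38 KO PBS counts came from replicates 4 and 5. In WT the 95% interval of the Alas2 ratio, 0.0866 to 1.22, included equal levels. The contrast of Alas1 with Alas2 was not tested.

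Some of the genes that take up and break down haemoglobin and haem rose after LPS. In KO, 4 of 11 tested members rose and 1 fell, where 7.05% of all tested genes were higher and 3.82% lower, and in WT, 6 rose and 0 fell, where 10.9% were higher and 7.12% lower. Hp (haptoglobin, which binds free haemoglobin) rose by 3.55 ± 0.54 in KO (edgeR adjusted p = 2.54e-06) and by 5.46 ± 0.54 in WT (3.49e-11). Its counts were 102 in KO LPS, 8 in KO PBS, 195 in WT LPS and 4 in WT PBS. Hp thus passed the filter on low counts mainly through the LPS groups. Cd163, the macrophage receptor for haemoglobin bound to haptoglobin, rose by 1.65 ± 0.37 in KO (adjusted p = 0.00108) and by 1.96 ± 0.32 in WT (7.78e-06). Hmox1 (haem oxygenase 1) rose by 1.63 ± 0.27 in KO (1.32e-05) and by 1.82 ± 0.25 in WT (2.11e-07).

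Fth1, the heavy chain of the iron store ferritin, rose by 0.47 ± 0.06 in KO (edgeR adjusted p = 1.16e-08) and by 0.56 ± 0.06 in WT (5.34e-11). In WT, Blvrb (biliverdin reductase B, 0.65 ± 0.12, adjusted p = 7.18e-05) and Slc40a1 (the iron exporter ferroportin, 0.75 ± 0.17, 0.000826) also rose. In KO they stood at 0.28 ± 0.13 and 0.52 ± 0.18 without passing the test. Slc48a1, a haem transporter, was the 1 member that fell, by 0.18 ± 0.06 in KO (adjusted p = 0.0334), and stood at 0.07 ± 0.06 in WT. Lrp1, a receptor for haem bound to haemopexin, stood at 0.10 ± 0.05 in KO and 0.04 ± 0.05 in WT. None of the 11 passed the test of a difference in LPS change between genotypes, and 2 had an unadjusted p under 0.05.

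Among the transcription factors that act in red cell development, 0 of 6 tested members were called in KO, where 10.9% of all tested genes were, and 2 of 6 in WT, where 18.1% were. Tal1 rose by 0.77 ± 0.20 in WT (edgeR adjusted p = 0.00444) and stood at 0.17 ± 0.20 in KO, and Lmo2 rose by 0.46 ± 0.11 in WT (0.00247) and stood at 0.31 ± 0.11 in KO. Both are also expressed in endothelium. Bcl11a, a repressor of embryonic globin genes, stood at -0.01 ± 0.07 in KO and -0.09 ± 0.06 in WT, Ldb1 at 0.28 ± 0.10 in KO and 0.06 ± 0.10 in WT, and Sox6 at -0.04 ± 0.10 in KO and 0.11 ± 0.10 in WT. Of the endothelial list, 7 of 8 members were called higher in KO, where 7.05% of all tested genes were. In WT, 8 of 8 were called higher, where 10.9% of all tested genes were. The summed endothelial level was 356.0 to 427.1 CPM in KO LPS and 182.0 to 236.7 CPM in KO PBS. It was 400.2 to 514.4 CPM in WT LPS and 192.3 to 242.1 CPM in WT PBS. The part of endothelial content in the Tal1 and Lmo2 values was not tested.

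Brain-expressed globins did not pass the test after LPS. Ngb (neuroglobin, a globin of neurons) stood at 0.15 ± 0.18 in KO (edgeR adjusted p = 0.704) and 0.46 ± 0.19 in WT (0.0883), and Cygb (cytoglobin) at 0.09 ± 0.06 in KO (0.373) and 0.15 ± 0.06 in WT (0.061). Of the 2 tested, 0 were called in either genotype, where 10.9% of all tested genes were called in KO and 18.1% in WT. In edgeR 0 in KO and 2 in WT had an unadjusted p under 0.05. Without replicate 3 of WT LPS, 2 of 2 were called higher in WT. With all libraries, 10.9% of all tested genes were called higher in WT.

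Neutrophil markers rose after LPS, where the globins were lower, while few platelet and lymphocyte markers could be tested. Of 11 neutrophil markers 8 were tested, and 8 rose in each genotype. Some of the 8 passed the filter on low counts mainly through the LPS groups, which favoured a rise. Retnlg had 64 counts in KO LPS, 8 in KO PBS, 82 in WT LPS and 1 in WT PBS. In the same order Mmp8 had 83, 3, 119 and 5 counts, and Ltf had 86, 12, 118 and 10. Of all tested genes 7.05% were called higher in KO and 10.9% in WT. The median log2 fold change of the tested neutrophil markers was 2.87 in KO and 3.94 in WT. S100a8, a calprotectin subunit, rose by 3.48 ± 0.39 in KO (edgeR adjusted p = 1.75e-09) and by 4.73 ± 0.39 in WT (1.66e-13). The neutrophil sum ranged from 95.2 to 407.7 CPM in KO LPS, 10.5 to 44.7 CPM in KO PBS, 131.3 to 726.1 CPM in WT LPS and 11.6 to 23.3 CPM in WT PBS, and Stfa2l1 had 0 counts in both PBS groups. Every LPS library lay above every PBS library of its genotype in this sum, while the globin sum had its lower medians in the LPS groups.

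Of 11 platelet markers 3 were tested, and Pf4 (platelet factor 4) rose by 1.259 ± 0.214 in KO (edgeR adjusted p = 1.98e-05) and by 1.209 ± 0.216 in WT (2.97e-05), the 1 call in each genotype. The share of all tested genes called higher was 7.05% in KO and 10.9% in WT. Itga2b stood at 0.08 ± 0.28 in KO and 0.00 ± 0.28 in WT, and Gp1bb at 0.20 ± 0.25 in KO and -0.56 ± 0.27 in WT. The platelet sum was 13.2 to 18.6 CPM in KO LPS, 8.92 to 13.7 CPM in KO PBS, 9.39 to 20.6 CPM in WT LPS and 8.34 to 15.3 CPM in WT PBS, and Gp1ba had no count in any group. Lymphocyte markers were too low to test apart from Trbc2, a T cell receptor constant gene at -0.26 ± 0.16 in KO and -0.16 ± 0.15 in WT, and Gzma, the granzyme A gene, which was called higher in each genotype. Gzma had 70 counts in KO LPS, 2 in KO PBS, 96 in WT LPS and 0 in WT PBS. It passed the filter on low counts through the LPS groups. The lymphocyte sum was 10.1 to 27.0 CPM in KO LPS, 6.94 to 10.2 CPM in KO PBS, 10.1 to 18.1 CPM in WT LPS and 5.98 to 10.4 CPM in WT PBS. The part of these cells in the globin difference was not tested.

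**Figure D4:**
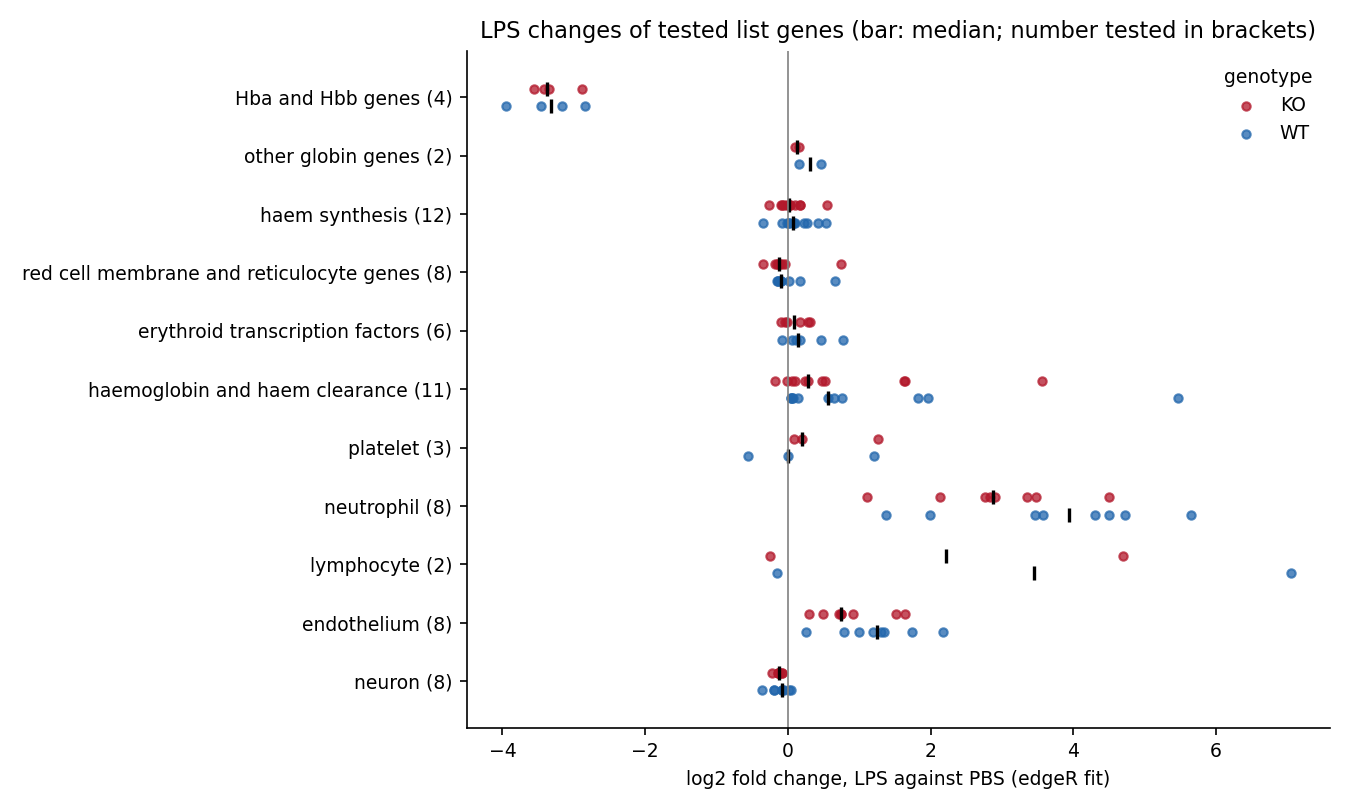
Log2 fold change of LPS against PBS for the tested genes of each list, KO above WT within a row, with a bar at the list's median and the number tested in brackets. The 4 globin genes lie at -3.95 to -2.85, while neutrophil genes lie above 1 in both genotypes and haem synthesis genes lie between -0.35 and 0.55.

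No tested gene outside the globins tracked them closely from library to library. After each group's mean was taken away, each of the 4 globin genes had an r of 0.911 to 0.970 with their own mean over 24 libraries, to which each contributes. Of the other tested genes, Pde2a (a cyclic nucleotide phosphodiesterase) had the highest r, 0.720, then Pfkfb4 (a regulator of glycolysis) with 0.707, St6galnac4 (a sialyltransferase) and Dgcr8 (a subunit of the microRNA processor) with 0.685 each, Gm37211 with 0.662, Zfp740 with 0.654, and n-R5-8s1 and Brox with 0.652 each. Across all tested genes the median r was 0.009. Among the tested genes of the other lists r ran from -0.34 (Hmox1) to 0.497 (Lrp1). These values share libraries and depth and are a description.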

How the data were processed

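The deposited table holds whole-number counts of 3′ tags per gene in 24 libraries, made by the authors with bcl2fastq, STAR 2.7.3a and featureCounts of Subread 2.0.0 on mm10 (GRCm38), with R 3.6.1 and DESeq2 1.26.0 also named, per the submitters' processing notes. Libraries were prepared with QuantSeq from 100 ng of total RNA, per the labels' protocols. For the annotation release, the strand setting, multiply matching reads and PCR duplicates, the sources used here give no setting. Of the 55421 genes, 55154 come with a symbol.

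Counts were fitted in edgeR 4.0.16 under R 4.3.3 over all 24 libraries, with 4 group means, TMM factors, filterByExpr (minimum count 10), which kept 14380 genes, and the quasi-likelihood F test with 20 residual degrees of freedom. Benjamini-Hochberg adjustment ran over all tested genes of a comparison, with calls at an adjusted p under 0.05. Each edgeR SE is the absolute log2 fold change divided by the square root of its F statistic. It is unstable where the fold change is near 0. DESeq2 1.42.0, other size factors, no filter, fits of 2 groups, a replicate block and fits without libraries were alternatives. CPM is the count per 1e+06 counts of the library total. The procedure was checked on simulated counts. Intervals at 95% cover counting error only. Replicate numbers of the labels were not taken to pair animals.

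The genes, lists and tests were chosen with earlier results of these data known. Named genes are the 5 genes, the 3 tested members of a list with the highest mean CPM, members that a count or result turns on, and the 8 genes most alike in pattern. The endothelial and neuron lists and 2 of the 3 neutrophil genes are summarised by counts and sums. Some red cell genes are not reported here. Promoters are RefSeq entries for GRCm38.p6, matched for 5 of 5 genes.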

Additional observations from a re-analysis of the deposited data

Results flagged for a closer look

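In each group of 6 libraries the gap between an extreme library and its neighbour was set against the range of the group, and 8 of 20 groups (5 genes in 4 groups) held a library beyond Dixon's 95% critical value. Chance gives about 1 in 20 for independent groups of normally distributed values. The globin genes moved together across libraries, so the 8 are not independent. The gaps were taken on CPM, which is bounded at 0 and skewed here, so that rate need not hold for these groups. It does not apply to Alas2 in KO LPS, where 5 libraries are at 0. Replicate 6 of KO LPS was such a library for all 5 genes. It had 6.58 CPM of Hba-a1 where the next library had 0.938 CPM, 3.84 CPM of Hba-a2 where the next had 1.31, 28.2 CPM of Hbb-bs where the next had 7.32, 16.4 CPM of Hbb-bt where the next had 2.40, and 0.822 CPM of Alas2 where the other 5 had 0. Replicate 3 of WT LPS stood apart in the beta genes, with 8.93 CPM of Hbb-bs where the next library had 2.84 CPM and 7.52 CPM of Hbb-bt where the next had 1.03. Replicate 2 of WT PBS had 1.33 CPM of Alas2, 7 counts, where the next library had 0.427 CPM. Replicates 4 and 5 of KO PBS are not among them, because each has the other as a near neighbour.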

How the results depend on the processing

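In 80 values for KO and 78 for WT from alternative fits, all globin log2 differences of LPS against PBS stayed under 0, from -5.38 to -1.69 in KO and from -4.55 to -2.37 in WT. The fits of 2 groups tested fewer genes, without Hba-a1 and Hba-a2 in some. The median over the tested globin genes ranged from -4.47 to -2.69 in KO and from -4.35 to -3.14 in WT when single libraries were left out, and was -1.76 in KO without replicates 4 and 5 of KO PBS, a choice made after seeing the data, as was leaving out replicate 6 of KO LPS with replicate 3 of WT LPS.

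For the genotype comparisons and the difference of LPS changes, no globin gene was called in any alternative but one. The edgeR fit with no filter on low counts called 4 after PBS and 3 after LPS (not Hba-a2), with near equal fold changes and SEs as small as 0.0822 (Hbb-bs after PBS); the cause was not tested. Without replicates 4 and 5 of KO PBS, KO over WT after PBS was -0.27 for Hba-a1, -0.0195 for Hba-a2, -0.36 for Hbb-bs and -0.0278 for Hbb-bt, and the LPS change in KO minus that in WT was 2.26 for Hba-a1, 1.03 for Hba-a2, 1.75 for Hbb-bs and 1.06 for Hbb-bt. That difference for Hbb-bt was 0.14 with DESeq2, 0.15 with the replicate block and 0.21 without replicate 6 of KO LPS and replicate 3 of WT LPS, where it was -0.97 for Hba-a1. It was -0.20 for Hbb-bs without replicates 1 and 2 of WT LPS. With single libraries left out, KO over WT after LPS ran from -0.0415 to 1.53 for Hba-a2 and from -0.42 to 2.72 for Hbb-bt, and the difference of LPS changes from -1.43 to 1.27 for Hba-a1, -1.44 to 0.13 for Hba-a2, -0.83 to 0.95 for Hbb-bs and -1.49 to 1.66 for Hbb-bt.

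Some counts of list genes called moved in every setting but the other size factors. DESeq2 called 0 red cell genes higher in KO and 0 in WT, and 2 lymphocyte genes in WT. With no filter 0 red cell genes, 1 transcription factor and 2 lymphocyte genes were called higher in KO, and 2 haem synthesis, 0 red cell and 2 lymphocyte genes in WT. Fits of 2 groups tested fewer neutrophil and lymphocyte genes. In KO 1 of 6 transcription factors, 4 of 4 neutrophil genes still tested and 0 of 1 lymphocyte genes were higher, and 3 of 8 neuron genes lower. In WT 0 of 7 red cell, 4 of 4 neutrophil and 0 of 1 lymphocyte genes were higher in these fits. With the replicate block 1 transcription factor was higher in KO and 2 haem synthesis genes in WT. Without replicates 1 and 2 of WT LPS 1 other globin gene, 2 haem synthesis genes and 0 red cell genes were higher in WT and 2 neuron genes lower in KO. Without replicates 4 and 5 of KO PBS 0 red cell genes were higher and 0 clearance genes lower in KO, and the same counts came without replicate 6 of KO LPS and replicate 3 of WT LPS, where 2 other globin genes were higher in WT. With single libraries left out, the counts ran from 0 to 1 for red cell genes in KO and in WT, 0 to 1 for transcription factors and for clearance genes lower in KO, 1 to 2 for haem synthesis and 0 to 2 for other globin genes in WT.

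Over all genes, 19 were called for KO over WT after PBS, against 88 with no filter, 33 in the fit of 2 groups, 39 with the replicate block and 36 without replicates 1 and 2 of WT LPS. After LPS 151 were called, against 293 with no filter, 273 with the block, 561 without replicates 1 and 2 of WT LPS and 72 without replicate 6 of KO LPS and replicate 3 of WT LPS. The difference of LPS changes gave 1, against 2 with DESeq2, 67 with no filter, 8 with the block and 249 without replicates 1 and 2 of WT LPS. The replicate block changed no call of a globin gene, and the numbers were not taken to pair animals, since only 2 of 36 same-number pairs had a correlation over 0.1 (-0.08 to 0.165). Still, 11 of 24 libraries correlated best with their own number, above the 1 in 6 of equal odds, a hint from the data and not from the design. The largest shift of the median of all genes in any setting was -0.0232 log2 units.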
